A study of Mus musculus with 8 samples.

Results

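Amino acid transporters that take part in cellular stress responses were examined in osteoblasts (OBs) from parietal bone of mouse pups with and without a mutation of type I collagen. The set held 10 genes (Slc7a5, Slc3a2, Slc1a5, Slc6a9, Slc7a11, Slc1a4, Slc7a1, Slc7a3, Slc38a2 and Slc38a1) of the 31053 genes listed in every library, and each symbol was found once. The genes were chosen by name after Het and WT values of mature osteoblasts in these libraries had been seen. Their Het versus WT difference in mature osteoblasts is therefore given as a description with no p-value. Early and differentiating osteoblasts, the other cells of the same libraries and the WT-only comparisons were tested. The WT-only comparisons include the WT mature osteoblasts whose values had been seen, so their p-values are not independent of the choice.

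Amino acids are charged molecules that cross the plasma membrane through carriers, most of them members of the solute carrier (SLC) families. When amino acids run short or unfolded protein accumulates, phosphorylation of the translation factor eIF2 slows protein synthesis and favours translation of the transcription factor ATF4. ATF4 and its partners bind C/EBP-ATF response elements and raise transcription of amino acid importers, amino acid synthesis enzymes and tRNA synthetases, a program known as the integrated stress response (ISR). Osteoblasts that deposit bone make large amounts of type I collagen, a protein rich in glycine and proline.

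Single cell suspensions of parietal bone were profiled with droplet-based 3′ RNA sequencing, in which each captured mRNA 3′ end is counted once by its unique molecular identifier (UMI). There were 8 libraries, 4 labelled WT and 4 labelled Het G610C, the heterozygous Col1a2 allele in which a triple-helical glycine of the pro-α2(I) chain is replaced. All were labelled strain B6.129(FVB)-Col1a2tm1Mcbr/J and age P4-5. Kit version 3 was used for S1 and S2 (both WT) and for S3 and S4 (both Het), and kit version 3.1 for S5 and S6 (both WT) and for S7 and S8 (both Het). A library pooled up to 5 animals of the same genotype. Libraries were therefore the replicates, and p-values measured the spread between them. The allele is germline and present in every cell, so cells other than osteoblasts carried it too.

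After quality control 46420 cells remained, and 2671 of them were OBs. OBs were cells with 10 or more Col1a1 UMIs in which 2 or more of Runx2, Sp7 and Ibsp reached 2 UMIs, thresholds set here that may differ from the study's own. Early OBs (eOBs, 379 cells) had under 0.75% of their UMIs from Col1a1, differentiating OBs (dOBs, 1217 cells) 0.75% to 3.5%, and mature OBs (mOBs, 1075 cells) over 3.5%. There were 42 to 299 mOBs per library, with 664702 to 4805858 UMIs in their sum and a median of 12348 to 21116 UMIs per cell. Levels are given in CPM, the UMIs of a gene per 1000000 UMIs summed over the cells of 1 library and population. They need no length scaling because only 3′ ends were counted.

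The selected cells carried osteoblast transcripts that the selection had not used. Dmp1, a matrix protein of late osteoblasts and osteocytes, stood at 243 to 801 CPM in the mOBs of the 8 libraries and at 0.487 to 4.23 in haematopoietic-like cells. The osteocalcin gene Bglap, a late osteoblast marker, stood at 4941 to 16620 in WT mOBs and at 563 to 3091 in Het mOBs. Dmp1 overlapped between the groups (243 to 477 in WT mOBs, 361 to 801 in Het mOBs). So did the osteoblast genes Ifitm5 (296 to 794 and 264 to 1335) and Spp1 (10591 to 28624 and 7928 to 14983). The means of Dmp1 and Ifitm5 were higher in Het, and that of Spp1 was lower. The median Col1a1 share of an mOB was 11.6% and 10.2% in S1 and S2 but 4.87% to 7.71% in the other 6 libraries, so WT mOBs of kit version 3 stood apart. Transcripts of other cell types were also uneven. Erythroid transcripts (6 markers) summed to 72.0 to 8863 CPM in WT mOBs and 21.1 to 1890 in Het mOBs, with the highest sum in S2 and none of the 6 higher in Het. Chondrocyte transcripts (7 markers) summed to 31.2 to 1024 in WT and 240 to 2642 in Het mOBs, with 7 of 7 higher in Het. Haematopoietic transcripts (11 markers, Cd3e at 0) summed to 9.57 to 671 in WT and 1.5 to 164 in Het mOBs, with 1 of 11 higher in Het. Fibroblast transcripts (5 of 5 markers higher in Het) summed to 12.0 to 26.8 in WT and 12.6 to 79.0 in Het, endothelial transcripts (6 of 6) to 8.95 to 14.8 and 3.01 to 32.0, and smooth muscle or pericyte transcripts (4 of 6, Acta2 among them) to 31.8 to 149 and 63.4 to 348. The WT and Het ranges of each sum overlapped over all 8 libraries. Within both kit versions, however, Het lay above WT for the fibroblast and smooth muscle or pericyte sums and below WT for the haematopoietic sum. For fibroblast transcripts the gap in version 3 was narrow (12.6 in S4, Het, against 12.3 in S2, WT). The erythroid, chondrocyte and endothelial sums were not apart in both kit versions. The part of these differences in the values below was not tested, and neither was that of maturation within the mOB class.

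In mOBs, 9 of the 10 transporters were higher in Het within both kit versions, and 6 of the 8 that passed the filter on low counts were past the threshold of edgeR. Of those 6, Slc1a5, Slc6a9 and Slc1a4 passed the filter through their Het libraries. Among the 8 tested, the fitted fold change was largest for Slc7a5, followed by Slc6a9 and Slc1a5, and the ratio of mean levels of Slc7a3, too low to be tested, was larger still (12.0 on 6 UMIs in WT, against 7.53 for Slc7a5). Slc38a2, the most abundant of the 10 in WT mOBs, overlapped between the groups. These counts describe the contrast on which the genes were chosen and are not evidence for it. At the same threshold (edgeR adjusted p under 0.05), 0.509% of the 9623 genes tested were called and 0.353% were called higher. All 4 Het libraries lay above all 4 WT libraries for 6 of 10 transporters, against 1.85% of tested genes, and both kit versions had Het above WT for 9 of 10, against 7.59% of tested genes. The 6 were all among the 8 tested. Slc7a3 and Slc7a11, counted among the 9, were not tested, so for the 9 the shares are not like for like. In S7 the level of Slc7a3 was within the range of the 4 WT libraries. The summed level of the 10 transporters was 250.7 ± 9.93 CPM in WT mOBs and 492 ± 104 in Het mOBs (SD, n = 4 each).

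**Figure D1:**
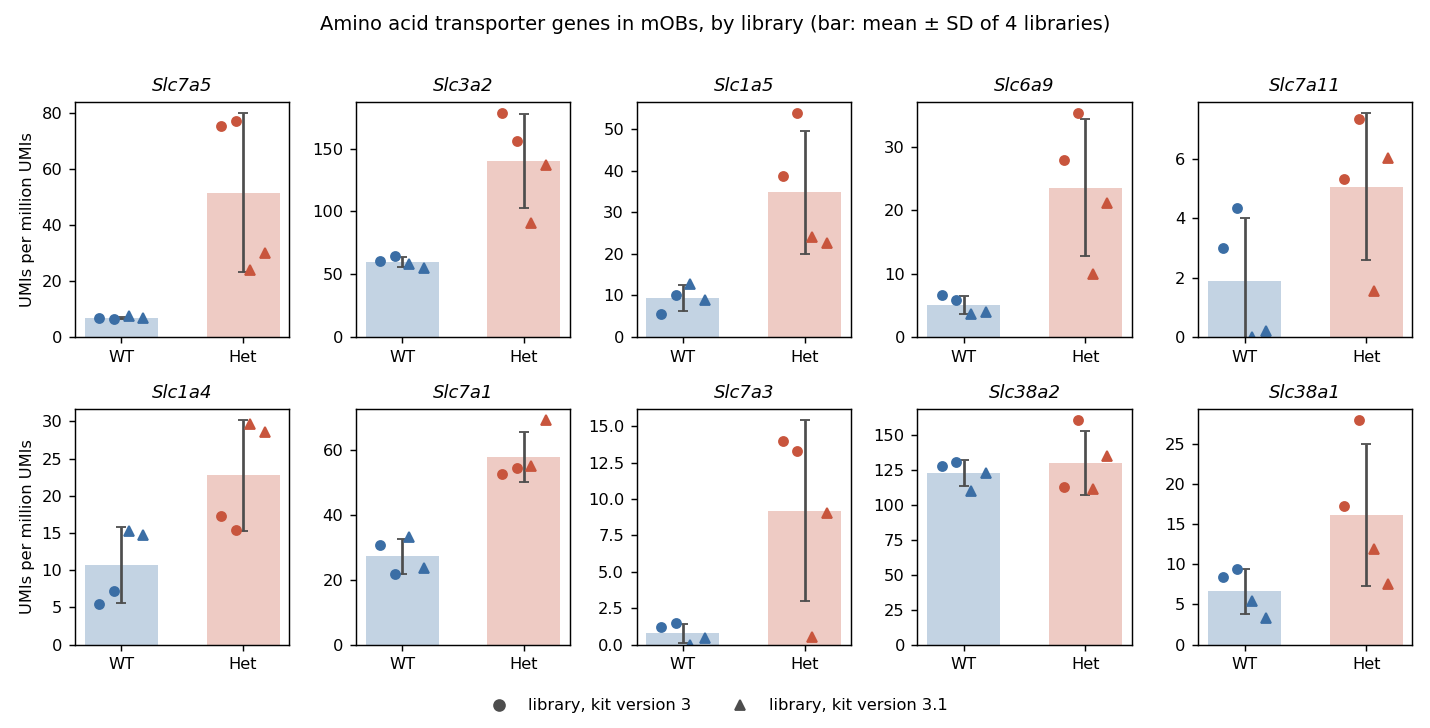
Level of each of the 10 transporters in mOBs (vertical axes, CPM on linear scales that differ by gene), with 1 point per library (circles for kit version 3, triangles for version 3.1), bars at the mean of 4 libraries and error bars of 1 SD. The groups are apart for Slc7a5 (6.51 to 7.42 in WT, 23.9 to 77.0 in Het) and overlap for Slc38a2 (109.8 to 131 in WT, 112 to 161 in Het).

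Slc7a5 encodes LAT1, the exchanger that imports leucine and other large neutral amino acids, and Slc3a2 encodes its partner 4F2hc (CD98), which carries LAT1 and several related transporters to the cell surface. Slc7a5 (chr8:121881150-121907694, minus strand, GRCm38) stood at 6.60, 6.51, 7.42 and 6.87 CPM in the WT mOBs of S1, S2, S5 and S6. It stood at 75.3, 77.0, 23.9 and 30.1 in the Het mOBs of S3, S4, S7 and S8. The WT libraries were nearly alike, and the Het libraries formed a high pair in kit version 3 and a lower pair in version 3.1, all above WT. The log2 fold change was 2.52 (SE 0.27), resting on 86 UMIs in WT and 399 in Het. Within kit versions it was 3.45 (SE 0.24) in version 3 and 1.76 (SE 0.24) in version 3.1.

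Slc3a2 (chr19:8706882-8723369, minus strand) was 60.6, 64.4, 58.3 and 54.5 CPM in the WT libraries and 178, 156, 90.5 and 137 in the Het libraries, in the same order. The groups were apart, with S7 the lowest Het library. Its log2 fold change was 1.12 (SE 0.16), smaller than that of its partner. The proportion within the pair differed accordingly: 1 UMI of Slc7a5 was accompanied by 7.85 to 9.89 UMIs of Slc3a2 in WT mOBs and by 2.02 to 4.55 in Het mOBs.

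Among carriers of small neutral amino acids, Slc1a5 encodes ASCT2, a glutamine exchanger, and Slc1a4 encodes ASCT1, a serine and alanine exchanger. Slc1a5 was 5.40, 10.1, 12.8 and 8.95 CPM in WT and 38.6, 53.9, 23.9 and 22.6 in Het mOBs. Every Het library was above every WT library, again with the larger gap in kit version 3, where the log2 fold change was 2.56 (SE 0.32) against 1.03 (SE 0.30) in version 3.1. The fold change over all libraries was 1.69 (SE 0.29). Slc1a4 was 5.40, 7.23, 15.3 and 14.8 in WT and 17.3, 15.4, 29.6 and 28.6 in Het. For this gene the kit versions differed about as much as the genotypes: S4 (Het) was level with S5 (WT), and the WT libraries of version 3.1 were above those of version 3. Its log2 fold change was 1.01 (SE 0.18), at 1.29 in version 3 and 0.88 in version 3.1.

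Slc38a1 and Slc38a2 encode SNAT1 and SNAT2, sodium-coupled importers of glutamine and alanine. SNAT2 is a classical target of amino acid starvation. Slc38a2 was 128, 131, 109.8 and 123 CPM in WT and 113, 161, 112 and 135 in Het mOBs, so the groups overlapped. Its log2 fold change was 0.01 (SE 0.13) and stayed between -0.18 and 0.15 over 20 alternative analyses. Slc38a1 was 8.40, 9.41, 5.40 and 3.33 in WT and 17.3, 28.0, 12.0 and 7.52 in Het. Het was higher within each kit version, but S8 was below S1 and S2, and the log2 fold change of 1.27 (SE 0.26) was not called by edgeR, though it was by DESeq2 and with no filter on low counts.

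Slc6a9 encodes GlyT1, the high-affinity glycine importer. It was 6.60, 5.79, 3.60 and 3.95 CPM in WT and 28.0, 35.4, 9.88 and 21.1 in Het mOBs. All Het libraries were higher, S7 least so. The log2 fold change was 2.01 (SE 0.27), and it was similar in both kit versions (2.29, SE 0.36, in version 3 and 1.70, SE 0.41, in version 3.1).

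Arginine and lysine enter through the cationic carriers CAT1 (Slc7a1) and CAT3 (Slc7a3). Slc7a1 was 30.6, 21.7, 33.1 and 23.7 CPM in WT and 52.6, 54.6, 55.1 and 69.2 in Het mOBs. This gene changed by nearly the same amount in both kit versions (log2 fold change 0.95, SE 0.24, and 1.01, SE 0.22) and by 0.98 (SE 0.16) overall. Slc7a3 was close to absent from WT mOBs, with 6 UMIs over 4 libraries (0 to 1.45 CPM). Het mOBs held 66 UMIs, at 14.0, 13.3, 0.520 and 9.03 CPM, so S7 alone was at the WT level. In WT cells of the other 7 populations compared below, its mean did not pass 0.974 CPM.

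Slc7a11 encodes xCT, the cystine and glutamate exchanger that supplies cysteine for glutathione. It held 12 UMIs in WT mOBs (3.0, 4.34, 0 and 0.208 CPM) and 36 UMIs in Het mOBs (5.33, 7.35, 1.56 and 6.02). Het was higher within each kit version, but S7 was below S1 and S2. Slc7a11 and Slc7a3 did not pass the filter on low counts, which asked for about 5.57 CPM in 4 libraries. With no filter Slc7a3 was called and Slc7a11 was not. Slc6a9 and Slc38a1 met that level in 2 WT libraries each and Slc1a5 and Slc1a4 in 3, so their 4 Het libraries carried them past the filter. Slc7a5, Slc3a2, Slc7a1 and Slc38a2 met it in all 8.

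Promoter sequences from RefSeq (GRCm38.p6, 250 bases before to 50 after a transcription start) were at hand for 6 of the 10 genes, and not for Slc7a5, Slc1a5, Slc7a3 and Slc38a1. They were searched on both strands for TGATGNAA, the letters of a C/EBP-ATF response element. At least 1 match was found for 1219 of 27025 genes with a promoter in the table (4.51%) and for 2 of the 6 transporters. Slc7a11 (chr3:50443564-50443863, minus strand) had a match on each strand, starting 66 and 47 bases before the start site, and Slc1a4 (chr11:20332664-20332963, minus strand) had 1 that started 4 bases before it. All 3 were the stricter form TGATGCAA, which 1.03% of genes held. Slc38a2 (chr15:96699679-96699978, minus strand), the transporter whose level was alike in both genotypes, had none in this window, nor had Slc3a2, Slc6a9 and Slc7a1. The full cyclic AMP response element TGACGTCA was found for 2.03% of genes and for none of the 6. The promoters of the genes with a match and of Slc38a2 are printed 5′ to 3′ in transcript direction, with the matched letters in capitals (TTGCATCA is the element read on the opposite strand). A match of letters does not show that a factor binds there.
Slc7a11: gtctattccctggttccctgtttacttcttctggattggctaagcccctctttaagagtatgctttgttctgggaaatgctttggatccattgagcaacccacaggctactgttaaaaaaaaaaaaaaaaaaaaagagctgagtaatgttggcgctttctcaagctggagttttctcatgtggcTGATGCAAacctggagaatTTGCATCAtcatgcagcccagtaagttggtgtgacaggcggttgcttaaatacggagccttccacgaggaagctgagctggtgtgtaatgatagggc
Slc1a4: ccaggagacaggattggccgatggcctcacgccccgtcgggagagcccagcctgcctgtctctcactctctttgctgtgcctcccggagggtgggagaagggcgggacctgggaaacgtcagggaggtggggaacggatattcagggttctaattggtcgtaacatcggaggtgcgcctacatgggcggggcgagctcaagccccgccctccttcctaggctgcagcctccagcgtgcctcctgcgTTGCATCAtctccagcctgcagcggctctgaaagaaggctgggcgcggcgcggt
Slc38a2: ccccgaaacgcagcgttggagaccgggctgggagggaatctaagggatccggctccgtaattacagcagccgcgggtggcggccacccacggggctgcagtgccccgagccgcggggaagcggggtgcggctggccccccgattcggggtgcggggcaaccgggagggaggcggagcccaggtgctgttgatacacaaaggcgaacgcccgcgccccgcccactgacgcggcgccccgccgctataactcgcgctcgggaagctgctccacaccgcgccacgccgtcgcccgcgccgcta

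How far the mOB calls depended on single libraries was examined by leaving each out. The number of transporters called in mOBs ranged from 1 (without S2, Slc7a5 only) to 7 (without S7 or without S8), and was 4 without S1, 3 without S3, S4 or S6 and 5 without S5. The number of all genes called moved with it, from 11 of 10078 without S2 to 166 of 9623 without S7 and 154 of 9990 without S8. Without S1 and S2 together, the WT libraries with the high Col1a1 share, no transporter and no other gene was called by edgeR, although 761 of 10830 genes had an unadjusted p under 0.05. No transporter was called by edgeR without the kit version as a covariate either, with 259 of 9623 genes at an unadjusted p under 0.05. The fold changes moved less than the calls: over the 19 alternatives that gave a value, the log2 fold change of Slc7a5 lay between 1.77 and 3.12, that of Slc6a9 between 1.72 and 2.63 and that of Slc1a5 between 1.04 and 2.82. Those of Slc7a1 lay between 0.89 and 1.09, and those of Slc3a2 between 0.79 and 1.32 over 20 alternatives.

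The number of mOBs with at least 1 UMI of a transporter moved with these levels. Slc7a5 was seen in 9.03% to 13.7% of WT mOBs and in 23.8% to 70.9% of Het mOBs of a library. With each cell thinned to 2000 UMIs, which left out 8 WT and 2 Het mOBs, the shares were 2.14% ± 1.32 in WT and 10.5% ± 4.24 in Het (SD, n = 4). In chondrocyte-like cells the thinned share was 1.85% ± 0.58 in WT and 1.41% ± 0.47 in Het, after 3549 WT and 328 Het cells under 2000 UMIs had been left out. Slc7a3 was seen in 0% to 2.74% of WT mOBs and in 0.952% to 17.7% of Het mOBs. With thinned cells it was seen in 0% of WT mOBs and in 0.130% ± 0.26 of Het mOBs. After thinning, an mOB held UMIs of 0.49 to 0.53 different transporters on average in the 4 WT libraries and of 0.56 to 1.03 in the 4 Het libraries, while dOBs held 0.48 to 0.62 in all 8.

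The transporters were also followed along the Col1a1 share of the cell, the measure that defined the OB stages. In Het OBs Slc7a5 was 14.0 ± 6.10 CPM below 0.75% of Col1a1, 12.4 ± 4.99 from 0.75% to 1.5%, 18.9 ± 8.07 from 1.5% to 2.5% and 23.0 ± 12.4 from 2.5% to 3.5% (SD, n = 4). It was 43.1 ± 33.0 from 3.5% to 4.5% (n = 4), 63.8 ± 35.1 from 4.5% to 6% (n = 3) and 55.7 ± 21.6 above 6% (n = 4). In WT OBs the same 7 means lay between 5.07 and 11.6, with no order along Col1a1. From 3.5% to 6% only the WT libraries S5 and S6 had enough cells.

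**Figure D2:**
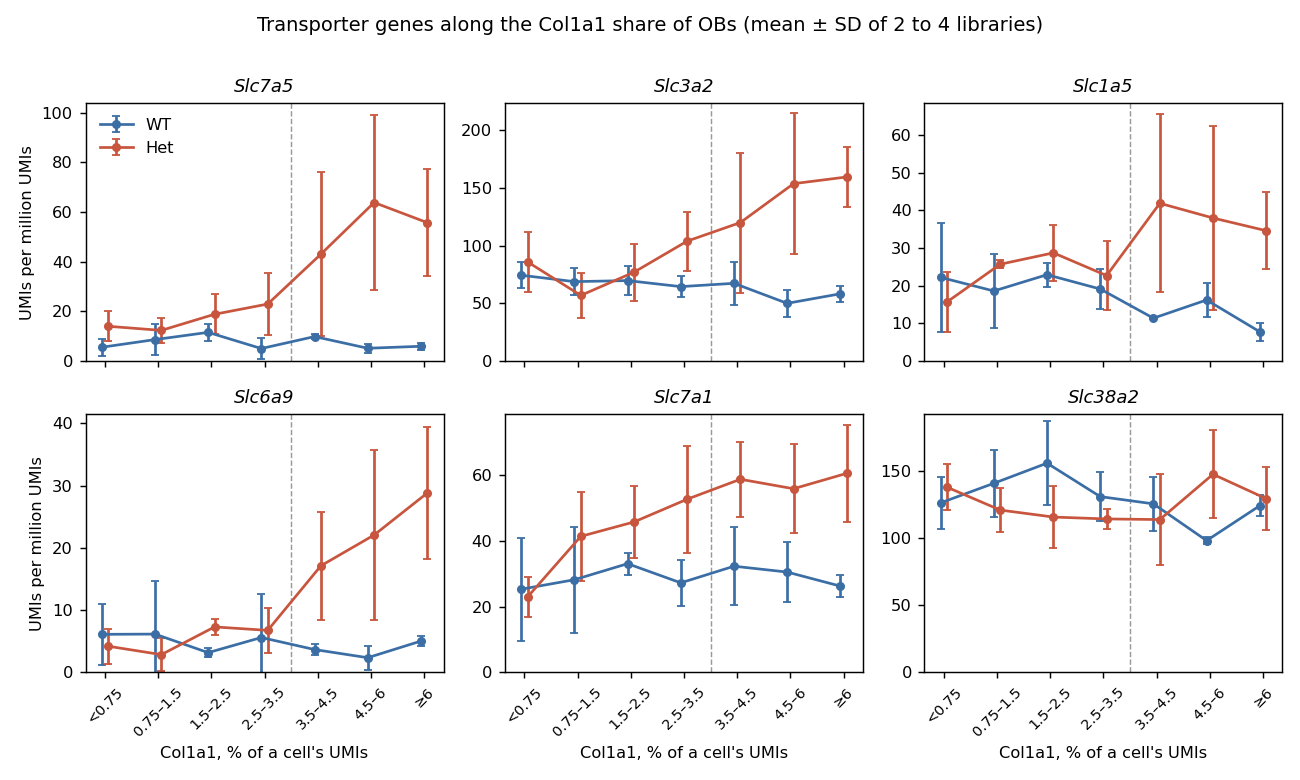
Level of 6 transporters (CPM) in OBs binned by the Col1a1 share of the cell's UMIs (percent), with points at the mean of 2 to 4 libraries for WT and Het, error bars of 1 SD and a dashed line at the dOB to mOB border. Slc7a5 in Het goes from 12.4 in the second bin to 63.8 in the sixth, WT stays at or below 11.6, and Slc38a2 shows no such separation.

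The values near the 3.5% border that divides dOBs from mOBs differed by library. Just below it (2.5% to 3.5%), Slc7a5 was 26.4, 37.3, 7.47 and 20.8 CPM in S3, S4, S7 and S8, and just above it (3.5% to 4.5%) 80.0, 61.8, 16.2 and 14.2. The rise at the border was thus seen in S3, S4 and S7 and not in S8. Each of these values rested on few UMIs, 7, 10, 8 and 8 below the border and 21, 27, 13 and 4 above it. Slc6a9 in Het OBs was 6.73 ± 3.60 just below the border, 17.1 ± 8.66 just above it and 28.8 ± 10.6 above 6% (SD, n = 4). Slc3a2 was 104 ± 25.5, 120.1 ± 60.7 and 159.6 ± 25.6 in the same bins. Slc7a1 followed another course: it was 23.0 ± 6.16 below 0.75%, had reached 41.4 ± 13.5 from 0.75% to 1.5% and ended at 60.6 ± 14.7. Slc38a2 stayed between 114 and 148 in every Het bin. Within Het libraries, the fitted log2 difference of mOBs from eOBs and dOBs together was 2.25 (SE 0.35) for Slc6a9, 1.94 (SE 0.20) for Slc7a5, 1.21 (SE 0.24) for Slc1a4, 1.15 (SE 0.16) for Slc3a2, 0.84 (SE 0.30) for Slc1a5, 0.84 (SE 0.14) for Slc7a1, 0.42 (SE 0.14) for Slc38a2 and 0.38 (SE 0.28) for Slc38a1, values that again contain the mOBs the genes were chosen on.

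In dOBs, which had not been used to choose the genes, no transporter was called. Of 7 tested, 0 passed in edgeR or in DESeq2, where edgeR called 0.0101% of 9857 genes (1 gene) and DESeq2 called 4. Without adjustment, 740 genes in edgeR and 552 in DESeq2 had a p under 0.05. The nearest was Slc7a1, at 22.0, 29.9, 32.0 and 35.8 CPM in the WT dOBs and 56.7, 39.2, 37.9 and 50.6 in the Het dOBs. Every Het library was above every WT library, and the log2 fold change was 0.53 (edgeR, SE 0.19, adjusted p = 0.583). Slc7a5 was 8.95, 15.0, 9.52 and 11.5 in WT and 22.1, 23.3, 7.64 and 17.8 in Het dOBs, with S7 below all WT libraries (log2 fold change 0.44, edgeR, SE 0.30, adjusted p = 0.743). Slc38a2 was 139.2 ± 22.5 in WT and 118 ± 5.50 in Het (log2 fold change -0.27, edgeR, SE 0.12, adjusted p = 0.661). The median over the 7 tested transporters was 0.14, and that of all tested genes was close to 0.

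The change in mOBs less the change in dOBs was 2.13 (SE 0.29) on the log2 scale for Slc7a5, 1.69 (SE 0.55) for Slc6a9, 1.55 (SE 0.39) for Slc38a1, 1.51 (SE 0.37) for Slc1a5, 1.18 (SE 0.27) for Slc1a4 and 0.97 (SE 0.21) for Slc3a2. For Slc7a1 it was 0.48 (SE 0.25) and for Slc38a2 0.26 (SE 0.20). These differences take in the mOB contrast and carry no test.

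In eOBs 0 of 5 tested transporters were called, with 0% of 8118 genes called by edgeR, 309 at an unadjusted p under 0.05 and 3 called by DESeq2, none of them a transporter. Slc7a5 did not pass the filter on low counts there and was not tested. It stood at 5.59 ± 3.52 CPM on 19 UMIs in WT and at 14.0 ± 6.10 on 20 UMIs in Het eOBs, and the groups overlapped. Slc38a1 went the other way from mOBs, at 22.2 ± 8.82 in WT and 11.8 ± 5.69 in Het eOBs (log2 fold change -0.89, edgeR, SE 0.35, adjusted p = 0.99981).

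**Figure D3:**
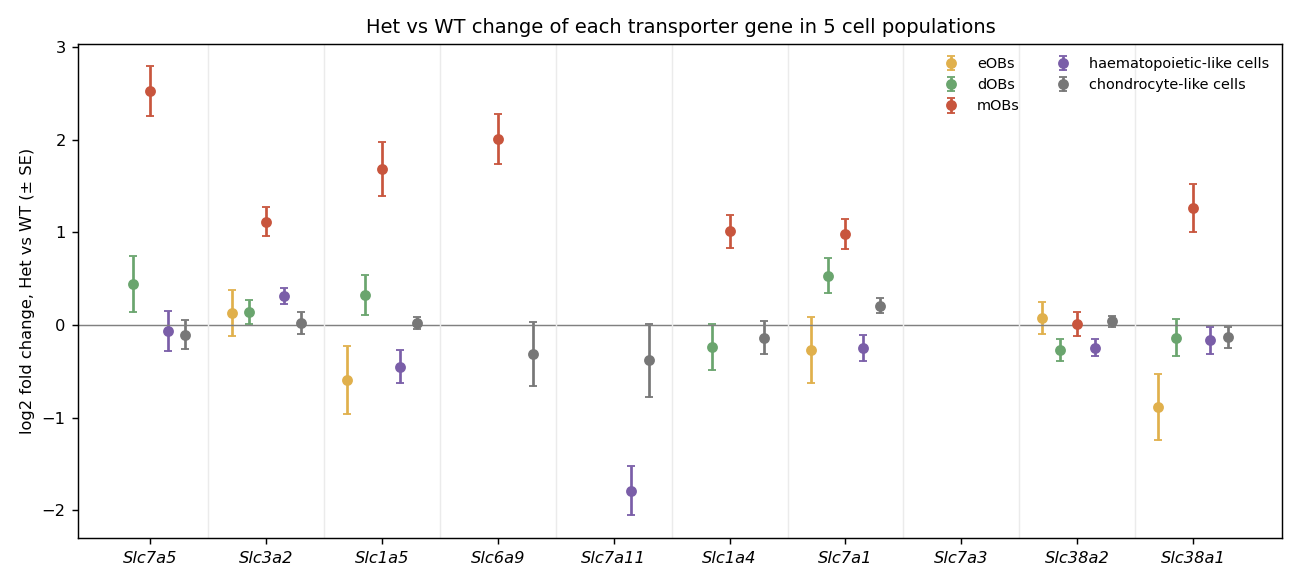
Log2 fold change of each transporter, Het versus WT, in 5 populations (eOBs, dOBs, mOBs, haematopoietic-like and chondrocyte-like cells), with bars of 1 SE and no point where a gene was too low to be tested. Slc7a5 is at 2.52 in mOBs and at 0.44 in dOBs, and Slc7a11 is at -1.79 in haematopoietic-like cells.

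Chondrocyte-like cells secrete another matrix and were taken as a population with little type I collagen, though no type I collagen level of theirs is given here. Of 9 transporters tested there, 0 were called, with 0.0792% of 13881 genes called. Fold changes were small: Slc7a1 had the lowest unadjusted p among them, with a log2 fold change of 0.21 (edgeR, SE 0.08, adjusted p = 0.668), and Slc7a5 stood at -0.10 (edgeR, SE 0.16, adjusted p = 0.999967).

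In haematopoietic-like cells the transporter with the largest difference, Slc7a11, was lower in Het. It was 130, 174, 119 and 75.7 CPM in the WT libraries and 26.1, 47.8, 42.6 and 35.6 in the Het libraries, so all Het libraries were below all WT libraries. The log2 fold change was -1.79 (SE 0.27). It missed the threshold in edgeR (adjusted p = 0.0527), where 0 of 7 transporters and 0% of 11827 genes were called and 2018 had an unadjusted p under 0.05. DESeq2 called 425 genes there, Slc7a11 among them (adjusted p = 4.66e-07), and edgeR called it with no filter on low counts (6.554e-06), with cells thinned to 2000 UMIs (0.0180) and with cells under 5% mitochondrial UMIs (0.0252). The makeup of this population varied between libraries. Its neutrophil transcript S100a8 ranged from 2758 to 40893 CPM in WT (mean 20655) and from 1680 to 13575 in Het (mean 5416). The groups overlapped over all libraries, and 4 of 11 haematopoietic markers were higher in Het. Within each kit version, however, the sum of the 11 markers was lower in Het, as Slc7a11 was. It was 56150 and 48352 CPM in S1 and S2 (WT) against 13872.5 and 24944 in S3 and S4 (Het). In S5 and S6 (WT) it was 10760 and 8976, against 8241 and 8228 in S7 and S8 (Het). Fewer cells of one type and less RNA per cell cannot be told apart in such sums, and their part in the Slc7a11 difference was not tested.

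Over all cells that were not OBs, 0 of 10 transporters were called (edgeR, 0% of 16502 genes, 4234 at an unadjusted p under 0.05). DESeq2 called 1927 genes, among them Slc7a11 and Slc6a9, both lower in Het. Slc7a11 had a log2 fold change of -2.97 (edgeR, SE 0.68, adjusted p = 0.165) and Slc6a9 of -1.48 (edgeR, SE 0.46, adjusted p = 0.171). The share of cells with at least 3 haematopoietic markers was 5.33% to 56.5% in the WT libraries and 3.21% to 9.75% in the Het libraries, and there were 53 to 1545 erythroid-like cells per WT library and 3 to 242 per Het library. Het and WT libraries lay apart within both kit versions, in opposite directions in different populations, for 3 of the 8 transporters tested in mOBs (Slc6a9, Slc38a1 and Slc38a2), against 7.58% of all genes tested there. For Slc6a9 and Slc38a1 one of these directions was that of the mOB contrast on which the genes were chosen, so nothing is read from this count.

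Without the mutation, the transporters were spread over the tissue in different patterns. Fibroblast-like cells, which could be summed in 1 WT library only, are not in this order; there Slc1a5 stood at 131 CPM (234 UMIs) and Slc1a4 at 25.2 (45 UMIs). Among the 8 populations with 4 WT libraries, erythroid-like cells had the highest mean of 4 transporters: Slc7a5 (47.7 ± 11.4 CPM), Slc1a5 (88.3 ± 4.6), Slc6a9 (50.5 ± 4.23) and Slc7a1 (43.2 ± 13.5). For Slc7a5 and Slc6a9 the lowest erythroid-like library was above the highest library of every other WT population. For Slc1a5 it overlapped haematopoietic-like cells, and for Slc7a1 several populations. Slc7a11 was a haematopoietic-like transcript (124.5 ± 40.3), with means of 0.357 to 5.99 elsewhere. Slc38a1 was likewise highest there (89.5 ± 10.6), with erythroid-like cells next at 27.9 ± 2.54. Slc38a2 was highest in chondrocyte-like cells (213 ± 11.8) but overlapped haematopoietic-like cells, and Slc1a4 was highest in smooth muscle or pericyte-like cells (15.2 ± 6.03) and overlapped the other populations except endothelial-like and haematopoietic-like cells. Slc3a2 ranged from 47.8 ± 7.36 to 100.3 ± 22.6 and Slc7a1 from 20.9 ± 4.85 to 43.2 ± 13.5 (SD, n = 4 each).

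**Figure D4:**
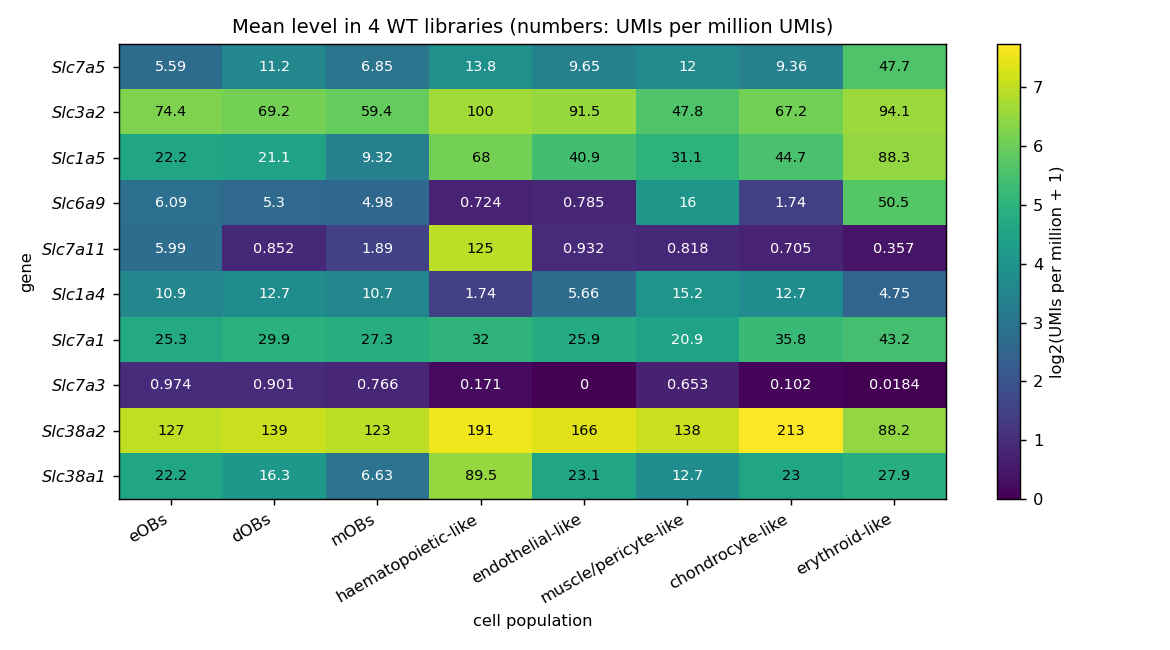
Mean level of each transporter (rows) in 8 populations (columns) over the 4 WT libraries, with the number in each cell in CPM and the colour on a log2(CPM + 1) scale. Slc7a11 stands out in haematopoietic-like cells (124.5) and Slc7a5 in erythroid-like cells (47.7), while mOBs hold the lowest means of Slc1a5 (9.32) and Slc38a1 (6.63).

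WT mOBs were at the low end of this order for several transporters. Slc1a5 and Slc38a1 were lowest in mOBs of the 8 populations, at 9.32 ± 3.08 and 6.63 ± 2.78 CPM, and Slc7a5 was second lowest (6.85 ± 0.411), in each case with an overlap with the next population. The difference between WT mOBs and the WT eOBs and dOBs of the same libraries was tested with the library as a block. Of 8 transporters tested, 2 fell and 0 rose, where 9.37% of 11307 genes were called lower and 19.6% were called in either direction. The WT mOB levels were among the values seen before the genes were chosen. The order above, this count and the p-values that follow are therefore not independent of that choice. Slc1a5 fell by 0.76 on the log2 scale (edgeR, SE 0.17, adjusted p = 0.0164) and Slc38a1 by 1.24 (edgeR, SE 0.28, adjusted p = 0.0184). Slc7a5 was at -0.03 (edgeR, SE 0.23, adjusted p = 0.961). DESeq2 called Slc38a1 only, and neither gene was called without S5 or without S6. In Het mOBs the levels were 34.8 ± 14.7 for Slc1a5 and 16.2 ± 8.83 for Slc38a1, near or above those of WT dOBs (21.1 ± 6.80 and 16.3 ± 2.14).

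WT OBs as a whole were lower than all other WT cells in 3 of 9 tested transporters and higher in 0, where 12.5% of 14950 genes were called lower and 19.0% in either direction. WT OBs include the WT mOBs seen before the genes were chosen, so this count and its p-values are not independent of that choice. The lower transporters were Slc7a11 (log2 difference -4.08, edgeR, SE 0.31, adjusted p = 0.00304), Slc1a5 (-1.78, edgeR, SE 0.26, adjusted p = 0.00949) and Slc38a1 (-1.59, edgeR, SE 0.23, adjusted p = 0.00902). Slc7a11 alone was called without S1, and 5 transporters were called without S1 and S2, with Slc3a2 and Slc38a2 added, where 40.2% of 16335 genes were called.

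None of the other amino acid carriers of the plasma membrane and lysosome was called in mOBs by edgeR, where 0.509% of all tested genes were. Of 37 listed, 17 could be tested, 0 passed in either direction and 8 were higher in Het, with a median log2 fold change of -0.02. These are carriers outside a set that had been chosen on this contrast. Nothing is therefore read from the difference between the set and this list. The most abundant of them was Slc36a2, a proton-coupled glycine and proline carrier, at 209 ± 71.7 CPM in WT and 121 ± 40.0 in Het mOBs. Its log2 fold change of -0.86 (SE 0.23) was not called, but it was called lower with no filter on low counts, without S8, with thinned cells and with OBs that held markers of another class left out. Slc38a10 was next, at 159.8 ± 21.1 in WT and 160.7 ± 17.9 in Het. The largest difference above 0 was that of Slc7a7, the y+LAT1 partner of Slc3a2 (8.91 ± 2.42 in WT, 16.8 ± 6.11 in Het, log2 fold change 0.66, SE 0.33). It was called higher without S7 and with those OBs left out. Of other partners of Slc3a2, Slc7a6 stood at -0.16 (SE 0.15) and Slc7a8 at -0.46 (SE 0.40).

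**Figure D5:**
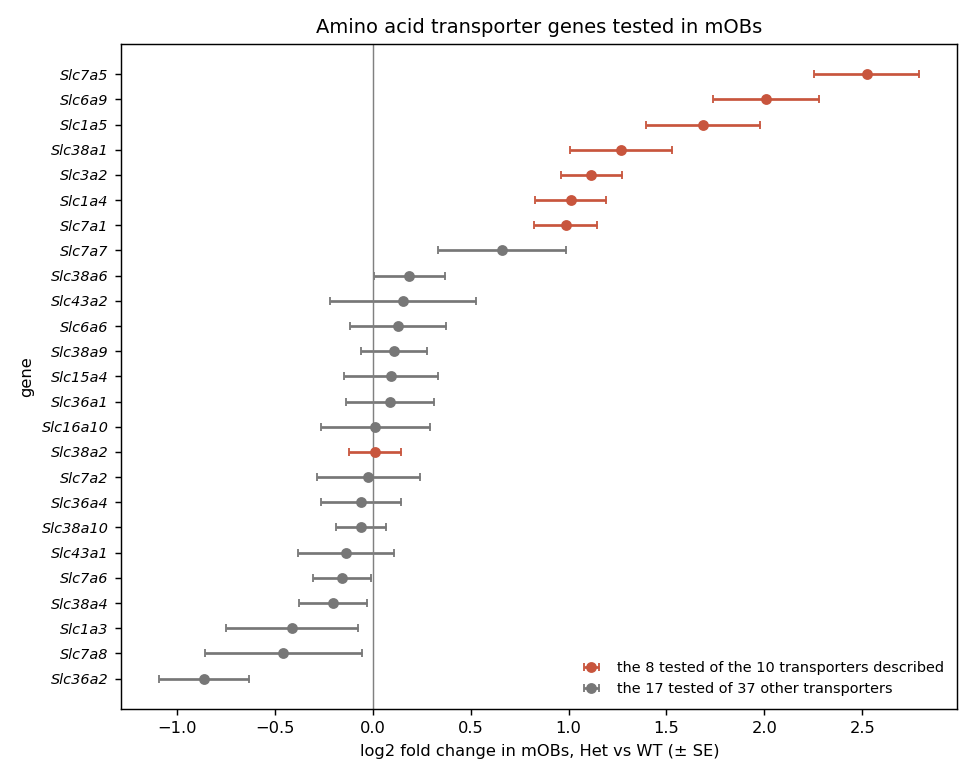
Log2 fold change, Het versus WT, in mOBs for the 8 tested transporters of the set (red) and the 17 tested other amino acid transporters (grey), with bars of 1 SE. The set runs from 0.01 (Slc38a2) to 2.52 (Slc7a5), and the others from -0.86 (Slc36a2) to 0.66 (Slc7a7). The set was chosen on this contrast, so its distance from the others is not evidence.

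Of the related lists, 2 held called genes, where 0.353% of all tested genes were called higher and 0.509% in either direction. Like the transporters, these lists were assembled with results of the same libraries known, so their values are descriptions with no p-value. Among ISR regulators and targets 6 of 22 tested were called higher and 0 lower (median log2 fold change 0.50). They included Asns, asparagine synthetase, at 30.05 ± 6.45 CPM in WT and 178.8 ± 96.2 in Het mOBs (log2 fold change 2.33, SE 0.24), and Atf5, a transcription factor of the response (2.01, SE 0.21). Psph (1.60) and Phgdh (1.45) of serine synthesis, Eif4ebp1 and Mthfd2 were the others, while Atf4 itself was at 0.03 (SE 0.16). Nupr1, the most abundant tested gene of this list, was at 0.47 (SE 0.20) and was not called. Among cytosolic tRNA synthetases 5 of 20 were called higher (median 0.48): Sars, Gars, Nars, Lars and Tars. Mitochondrial amino acid carriers (6 tested), amino acid sensing and mTORC1 genes (24), glutathione and NRF2 target genes (11) and carriers of other nutrients (17) had 0 called, with medians between -0.05 and 0.16. None of their genes was called without S1 and S2.

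The genes whose levels ran most like Slc7a5 over the 24 sums of eOBs, dOBs and mOBs of 8 libraries were Asns (Pearson r = 0.86), Lars (0.85), Hspa9 (0.83), Aars (0.80) and Eif4ebp1 (0.80), among 6706 genes of at least 20 CPM. The coefficients are descriptions, since the 24 points share libraries and 4 of them are the Het mOBs that carry the high values. Within the 12 Het sums they were 0.82 to 0.87, and within the 12 WT sums 0.36 to 0.66. Of the other transporters Slc3a2 was the most alike (0.78), followed by Slc7a1 (0.70), Slc7a3 (0.67), Slc1a5 (0.66) and Slc1a4 (0.64), and Slc38a2 (0.03) and Slc38a1 (0.10) the least. Lars loads leucine onto its tRNA. It was 67.2, 55.0, 53.1 and 53.1 CPM in WT mOBs and 128.5, 119, 88.4 and 96.3 in Het mOBs, and Asns 34.2, 36.9, 24.7 and 24.3 against 276, 237, 64.5 and 136.9. As with Slc7a5, S7 was the lowest Het library for both.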

How the data were processed

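Parietal bone cells were profiled by 10x Genomics 3′ sequencing. The authors deposited raw UMI counts per gene and cell for each library, made with Cell Ranger (5.0.0 and 6.0.1, per the file headers) on mm10 per the submitters' notes, and not normalized. Cells with at least 500 genes and under 10% mitochondrial UMIs were kept. Counts were summed per library and population, and tested with edgeR 4.0.16 (filterByExpr, TMM, quasi-likelihood, kit version and genotype, or library as a block for WT-only tests) in R 4.3.3, with Benjamini-Hochberg adjustment over all tested genes and 0.05 as the threshold. Standard errors are the log2 fold change divided by the root of F. Cells other than OBs with at least 3 detected markers of exactly 1 class, chondrocytes also with Col2a1 over 1% of UMIs, formed the X-like classes, a rule set after the data were seen. Doublets were kept, and an alternative left out OBs with at least 3 markers of another class. Of the barcodes kept, 244 occurred in 2 or more libraries, at most 24 in a pair. Coordinates come from GENCODE M21, which held all 10 gene identifiers. The annotation had no other gene on the strand of a transporter except 2 within Slc7a11 (Gm37692 and Gm37498), which the count tables do not list.

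The transporters and gene lists were chosen with earlier results of these data known. Named genes were the 10 transporters, per list at most 4 called genes in each direction and the 2 most abundant tested genes, and the 5 genes most like Slc7a5 by Pearson r of log2(CPM + 1) centred within kit version. For most lists the 2 most abundant genes are not printed. Named partly outside this rule, after their values were seen, were Slc7a7, Slc7a6, Slc7a8, Eif4ebp1, Mthfd2 and Tars. The tests were run on simulated counts first. Alternatives were DESeq2 1.42.0, RLE factors, library sizes without collagen UMIs, no filter, thinning to 2000 UMIs, under 5% mitochondrial UMIs, looser and stricter OB selection, no kit covariate, a replicate block, each library left out and, added after seeing the data, S1 and S2 left out.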

Additional observations from a re-analysis of the deposited data

Results flagged for a closer look

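Of 137 groups of 4 libraries looked at (1 transporter, population and genotype each), 8 had 1 library whose gap to the nearest other, divided by the range, was over Dixon's 95% critical value. Chance alone gives about 1 in 20. In osteoblasts these were Slc7a1 in Het mOBs (S8 at 69.2 CPM, others 52.6 to 55.1), Slc3a2 in Het dOBs (S4 at 103.5, others 65.5 to 70.4), Slc1a4 in Het dOBs (S3 at 7.69, others 13.0 to 14.0), Slc6a9 in WT dOBs (S1 at 13.8, others 1.76 to 3.49) and Slc7a11 in WT eOBs (S2 at 21.8 on 7 UMIs, others 0 to 2.15). In other populations they were Slc1a5 in Het endothelial-like cells (S7 at 47.8, others 68.6 to 72.0), Slc1a4 in WT chondrocyte-like cells (S2 at 2.84, others 15.1 to 16.5) and Slc7a3 in WT smooth muscle or pericyte-like cells (S2 at 2.61 on 1 UMI, others 0).

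Opposite directions between populations, seen within both kit versions and not tested, were found for 4 transporters, 3 of them among the 8 tested in mOBs. Of all 9623 genes tested there, 7.58% showed the same, and the mOB direction of 3 of the 4 is that of the contrast on which the genes were chosen. The Het to WT ratio of mean levels of Slc6a9 was 4.73 in mOBs and 0.334 over all cells that were not OBs. For Slc7a11 it was 2.68 in mOBs, 0.305 in haematopoietic-like cells and 0.0941 over all cells that were not OBs. For Slc38a1 it was 2.44 in mOBs and 1.25 in endothelial-like cells but 0.532 in eOBs and 0.725 over all cells that were not OBs. For Slc38a2 it was 1.13 in smooth muscle or pericyte-like cells and 0.932 in haematopoietic-like cells.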

How the results depend on the processing

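Of 494 recomputed values, 391 kept their direction and their side of the threshold or moved by less than the spread, 91 moved, 7 single tested genes lost and 5 gained a call and 0 reversed. A change of sign of Slc38a2 in mOBs, whose fold change was close to 0, was not counted as reversed. Its log2 fold change was above 0 in 15 of 20 alternatives. Counts of calls that changed by over 1.5 times are among those that moved. The 6 transporters called in mOBs became 0 with genotype only, 0 with cells thinned to 2000 UMIs (2 tested), 0 without S1 and S2, 3 with a replicate block (25 of 9623 genes called in all, against 49), 7 with DESeq2 (Slc38a1 added, 130 genes), 8 with no filter (Slc38a1 and Slc7a3 added, 536 of 18427), and 1 to 7 with 1 library left out (11 to 166 genes). With cells under 5% mitochondrial UMIs, or OBs with markers of another class left out, 6 were called with Slc38a1 in place of Slc1a4 (59 of 9260 and 355 of 7793 genes). In all other cells DESeq2 called 2 in place of 0. In haematopoietic-like cells 1 (Slc7a11) in place of 0 was called with DESeq2, no filter, thinning or under 5% mitochondrial UMIs. In WT mOBs against WT eOBs and dOBs the 2 calls became 1 with DESeq2, 0 with thinning (3 tested) and 0 to 2 with 1 library left out. In WT OBs against other cells the 3 became 5 without S1 and S2 (40.2% of all genes called, against 19.0%) and 1 to 3 with 1 library left out. The 11 genes called in the related lists became 5 with a replicate block, 18 with DESeq2, 27 with no filter, 0 without S1 and S2, and 2 (without S2) to 23 (without S7) with 1 library left out. In the WT-only comparisons the library was the block throughout. The numbers within a kit version were not taken as a pairing, since the labels give none and same-numbered WT and Het mOB libraries deviated with r of -0.05 and -0.03 (0.25 and 0.06 in haematopoietic-like cells, -0.12 to 0.09 in the other populations). No transporter could be tested in thinned eOBs. The cause of these changes was not tested. Depth limited Slc7a11 and Slc7a3 in mOBs (12 and 6 UMIs in WT) and all but the most abundant transporters in eOBs.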

Other observations

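Within thinned mOBs, the cells with a Slc7a5 UMI were compared with those without, as a description over few UMIs. Of the Het mOBs 46 had one (26 of them in S4) and 370 had none. The median Col1a1 share was higher in the cells with one in each Het library, at 6.67% to 18.2% against 4.81% to 7.34%, and its part in the values was not tested. Atf5 stood at 261 CPM in the first and 165 in the second, and was higher in 3 of 4 libraries. Asns stood at 304 against 164 but was higher in 2 of 4. Slc3a2, the partner of Slc7a5, stood at 87.0 on 8 UMIs against 147 on 109 UMIs, and was higher in 1 of 4. In WT 12 mOBs had a Slc7a5 UMI and 637 had none, and Slc3a2 stood the other way, at 167 on 4 UMIs against 69.9 on 89 UMIs, higher in 4 of 4 libraries. No relation between the subunits is read from so few UMIs.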
